A study of Mus musculus with 47 samples.

Results

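Matrix metalloproteinases (MMPs) are zinc-dependent enzymes that cut the proteins of the extracellular matrix, and tissue inhibitors of metalloproteinases (TIMPs) bind their active site and block them. Most MMPs are secreted as inactive precursors and are switched on outside the cell by other proteases, so a transcript level is not an enzyme activity. Macrophages make several of them, release them during inflammation and repair, and use them to cross tissue and to process cytokines. The genes described here are 9 of the 51912 genes in the tables of the primary macrophages. They were chosen by name from the family: 6 proteases (Mmp8, Mmp9, Mmp12, Mmp13, Mmp14 and Mmp19) and 3 inhibitors (Timp1, Timp2 and Timp3). All 9 were found.

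The series studies Zmynd8, a chromatin reader protein, in mouse macrophages, and RNA-seq of 12 libraries is used here, each the only library of its group. Of these, 6 came from bone marrow-derived macrophages (BMDMs) of C57BL/6 mice, grown with M-CSF, in which 3 biological replicates were mixed into each library. The genotypes were Zmynd8 fl/fl littermates (WT) and mice in which Lyz2-Cre deletes the floxed exons (Zmynd8 cKO), a Cre that is active across myeloid cells and not only in macrophages. BMDMs of each genotype were left untreated, given LPS at 100 ng/ml, or given IL-4 at 20 ng/ml, the treatments lasting 6 h.

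The other 6 libraries are labelled Raw264.7, a mouse macrophage line. In 3 of them Zmynd8 had been knocked out with a lentiviral guide RNA: the knockout alone (Zmynd8 KO), the knockout given back WT Zmynd8, and the knockout given a mutant Zmynd8 labelled D/E-A. Their titles name no treatment. For the RNA-seq the study's text describes LPS for the rescued lines and none for the knockout alone. In the remaining 3, all titled with LPS but with no dose or time, p65 (the NF-κB subunit encoded by Rela) had been knocked out: the knockout alone (p65 KO), and the knockout given WT p65 or its K122R mutant. The column of the WT p65 library does not name the knockout, so unmodified cells cannot be told apart from it. WT, cKO, KO and the other group names below are the labels of the libraries. The WT Zmynd8 library and the WT p65 library are each the control of 2 comparisons.

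The BMDM libraries held 26209347 (WT) and 22597421 (cKO) estimated counts without treatment, 24902784 and 23430560 with LPS, and 28386625 and 26128552 with IL-4. The reads recovered for the Raw264.7 libraries numbered 18397028 for WT Zmynd8, 21042628 for Zmynd8 KO, 17930091 for D/E-A (over the genes its table lists), 15665382 for WT p65, 16653841 for K122R and 15127110 for p65 KO. With 1 library in each group no difference below has a replicate check: a test on reads compares 2 libraries, not the conditions. Intervals are 95% Clopper-Pearson intervals of the reads and cover counting error only. In bulk RNA, fewer cells that make a transcript and less of it in each cell cannot be told apart.

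The targeted genes came first. Zmynd8 had 2284 counts in WT and 1842 in cKO BMDMs without treatment, 1967 and 2033 with LPS, and 3636 and 3944 with IL-4. In CPM (counts scaled to the total of their library), cKO over WT was 1.07-fold lower without treatment, 1.10-fold higher with LPS and 1.18-fold higher with IL-4, each under the 1.2-fold needed for a call. On TPM it stood at 31.4 in WT and 23.2 in cKO without treatment, lower in cKO by more than 1.2-fold, at 25.7 and 29.8 with LPS, and at 43.9 and 48.5 with IL-4. These values take in the exons outside the floxed ones, so they do not check the deletion. Zmynd8 stood at 506 (deposited value, a read count divided by a size factor) with WT Zmynd8 and at 116 in Zmynd8 KO, 4.31-fold lower, and at 509 in D/E-A beside 474 in WT Zmynd8 of the same table. Rela stood at 1574 with WT p65 and at 778 in p65 KO, 2.02-fold lower, and at 5963 in K122R beside 1571 in WT p65 of the same table, 3.80-fold higher. Zmynd8 itself stood at 1791 with WT p65 and at 1091 in K122R, 1.64-fold lower (1.52 to 1.77). The K122R and WT p65 libraries thus also differed in their Rela and Zmynd8 transcripts.

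The treatments of the BMDMs were visible in their usual targets. Nos2, the inducible nitric oxide synthase, stood at 8.74 CPM in untreated WT BMDMs and at 7472 with LPS; in cKO it stood at 4.25 and 7391. Chil3, a chitinase-like protein of IL-4-treated macrophages, stood at 0.687 and 296 CPM in untreated and IL-4 WT BMDMs, and at 0.398 and 399 in cKO. The genotypes differed in some of these targets. Nos2 was 2.05-fold lower in cKO without treatment (1.61 to 2.64) and 5.74-fold higher with IL-4 (4.03 to 8.58), at 1.233 CPM in WT and 7.16 in cKO. Cxcl10, a chemokine that LPS raises, was 2.93-fold lower in cKO without treatment (2.498 to 3.46) and 4.41-fold higher with IL-4 (4.04 to 4.82), at 22.2 and 97.8 CPM. With IL-4 the inflammatory cytokine Il6 had 6 counts in WT and 56 in cKO, and the IL-4 target Retnla had 85 and 5. The IL-4 library of cKO thus held more Nos2, Cxcl10 and Il6 than that of WT, and their part in the members' genotype folds was not tested.

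In the Raw264.7 Zmynd8 lines LPS targets were present with and without the rescue. Cxcl10 stood at 49022 with WT Zmynd8 and 77411 in Zmynd8 KO, Nos2 at 9593 and 24330.1, and Il6 at 1994 and 2219. Beside D/E-A, Cxcl10 stood at 45930 with WT Zmynd8 and 70476 in D/E-A, and Il6 at 1868 and 2211. Nos2 stood at 8988 and 50270, 5.59-fold higher in D/E-A (5.47 to 5.72). No untreated library of these lines was used here, so the values do not settle the treatment of the knockout. In the p65 lines Nos2 was 2.95-fold (2.84 to 3.07) and Il6 1.67-fold higher (1.59 to 1.75) in K122R than with WT p65, and Cxcl10 (log2 fold 0.26) was not called. In p65 KO Il6 was 2.15-fold lower (2.005 to 2.30), and Nos2 (0.22) and Cxcl10 (-0.11) were not called.

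Several libraries stood apart by their cell type markers. All 7 macrophage markers were above 3 counts in every BMDM library, at a summed 4870.1 to 6098 TPM (a level per transcript length, scaled to the library), with Cd68 the most abundant. The 10 neutrophil markers summed to 11.6 TPM in WT and 12.1 in cKO without treatment and to 22.1 and 14.4 with LPS, where S100a8 led and Elane was at 0 in all 4 libraries. With IL-4 they summed to 1307 TPM in WT and 1848 in cKO, led by S100a9 at 718 and 1063 TPM, and 9 of the 10 were above 3 counts. The titles also number the IL-4 libraries apart from the other BMDM libraries, and no label says whether they were sequenced together.

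The Raw264.7 libraries fell into sets that are unlike each other. In each Zmynd8-line library all 10 neutrophil markers and all 6 B cell markers were present. The neutrophil markers summed to a value of 201112 with WT Zmynd8 and 142948 in Zmynd8 KO of the same table, and to 188427 with WT Zmynd8 and 82294 in D/E-A of the other, led by S100a9 or, in D/E-A, by Ngp. The B cell markers summed to 3968 and 3024, and to 3718 and 3814, led by Cd79b. In the p65-line libraries the neutrophil markers summed to 7.85 with WT p65, 9.17 in K122R and 9.15 in p65 KO, with S100a9, Ly6g, Elane, Mpo and Ngp at 0 or not listed in all 3, and the B cell markers summed to 132, 149.8 and 95.6, led by Pax5. Ltf led the neutrophil markers with WT p65, at 1.96, and Prtn3 led in the other 2, at 6.12 in K122R and 5.09 in p65 KO. All 7 macrophage markers were listed in both sets, led by Fcgr1 in the Zmynd8 lines and by Cd14 in the p65 lines. The Zmynd8-line libraries thus hold markers that the p65-line libraries, labelled as the same cell line, lack. No value is compared between the sets, and with 1 library in each group no comparison can be repeated without the libraries in question.

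Per length, the elastase Mmp12 led the family in resting BMDMs and the membrane protease Mmp14 led it after either treatment. In untreated WT BMDMs Mmp12 stood at 1797 TPM, 82.0% of the TPM of all 9 genes together. Timp2 followed at 153 TPM, Mmp13 at 109, Mmp8 at 64.0 and Mmp14 at 49.5, then Mmp19 at 13.0, Mmp9 at 2.96 and Timp1 at 2.24, and Timp3 was at 0. The untreated cKO library had the same first and second genes, at 1883 and 139 TPM.

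With LPS the order in WT was Mmp14 at 577 TPM, Timp1 at 302, Mmp12 at 282, Mmp13 at 112 and Timp2 at 78.6. In cKO with LPS it was Mmp14 at 722 TPM, Mmp12 at 323, Timp1 at 146, Mmp13 at 141 and Timp2 at 59.2, so Timp1 and Mmp12 stood in the opposite order in the 2 genotypes. With IL-4 Mmp14 led in WT at 265 TPM, ahead of Mmp12 at 129, Timp2 at 103 and Mmp13 at 67.3. In cKO with IL-4 Mmp14 led at 532 TPM, and Mmp13 and Mmp12 were level at 136.5 and 135.7. Which neighbours in these orders differ beyond a spread between samples is unknown, since there is 1 library of each kind.

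**Figure D1:**
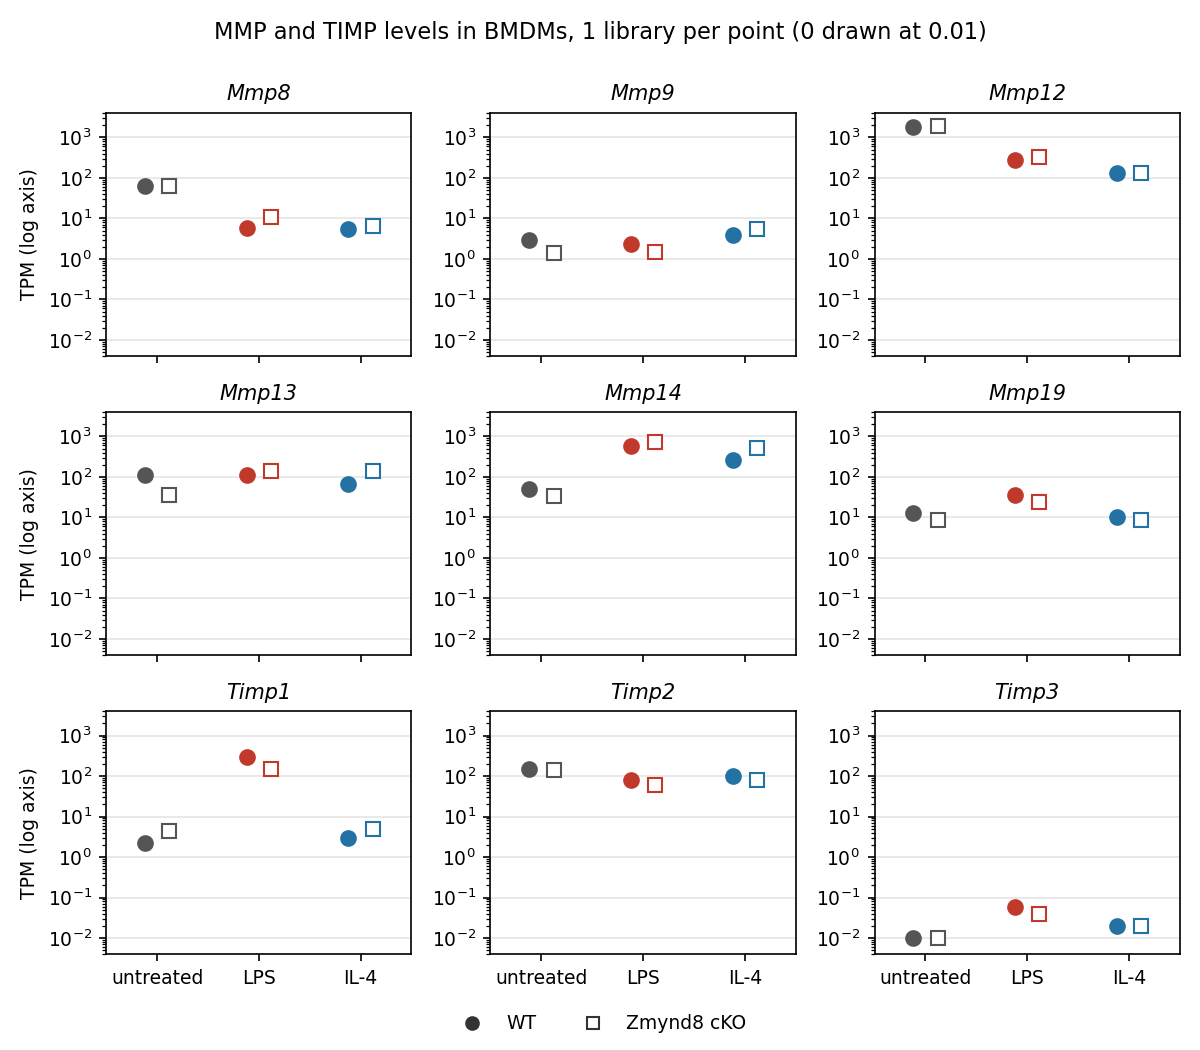
Level of each gene in TPM (log axis, a value of 0 drawn at 0.01) in the 6 BMDM libraries, with WT as filled circles and Zmynd8 cKO as open squares. Mmp12 fell from 1797 TPM in untreated WT to 282 with LPS and 129 with IL-4, while Mmp14 rose from 49.5 to 577 and 265.

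Summed over the proteases and over the inhibitors, the members gave 2036 and 155 TPM in untreated WT BMDMs, a ratio of 13.1, and 2025 and 144 TPM in cKO, a ratio of 14.1. With LPS the sums were 1015 and 380.4 TPM in WT, a ratio of 2.67, and 1224 and 205 TPM in cKO, a ratio of 5.97. With IL-4 they were 481 and 106 TPM in WT, a ratio of 4.55, and 825 and 84.3 TPM in cKO, a ratio of 9.79. Mmp12 carries much of these ratios: without it they were 1.54 in WT and 0.989 in cKO without treatment, 1.93 and 4.40 with LPS, and 3.32 and 8.18 with IL-4. With Mmp12 the ratio was lower in each treated library than in its untreated one, and without Mmp12 it was higher. The ratio in cKO was above that in WT after either treatment on both sums, and without treatment it was above with Mmp12 and below without it. These ratios were not tested.

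The effect of LPS was asked within each genotype. A gene was called when an exact binomial test on the reads gave a Benjamini-Hochberg adjusted p under 0.05 and the fold was at least 2 in CPM; genes averaging under 10 counts were not tested. Of the 8 members tested in each comparison, all but Timp3, 6 were called in WT (3 higher, 3 lower) beside 52.9% of all tested genes, and 7 in cKO (4 higher, 3 lower) beside 54.9%. The members' median log2 fold was -0.10 in WT and 0.49 in cKO, against -0.70 and -0.65 for all tested genes. With median-ratio scaling the medians of all genes were -0.09 and -0.07 and those of the members 0.51, the sign turned, and 1.06; on TPM the medians of all genes were -0.72 and -0.35. Each LPS fold below is to be read against them.

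Mmp14, a membrane-anchored protease that cuts collagen and activates other MMPs at the cell surface, stood at 52.3 CPM in WT and 37.0 in cKO without treatment, at 616 and 770.3 with LPS, and at 278 and 565 with IL-4. It was low in both untreated libraries and high in all 4 treated ones. With LPS it rose 11.8-fold in WT (11.1 to 12.5) and 20.8-fold in cKO (19.4 to 22.4).

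Timp1, a secreted inhibitor of most MMPs that binds Mmp14 poorly, stood at 0.954 CPM in WT and 2.17 in cKO without treatment, at 135 and 61.5 with LPS, and at 1.198 and 2.10 with IL-4. It was high with LPS and near its untreated level with IL-4. It rose 139-fold with LPS in WT (95.9 to 219.5) and 28.1-fold in cKO (21.3 to 38.5), the untreated libraries holding 25 and 49 counts. With 1 CPM added to each value its log2 fold was 6.125 in WT in place of 7.12, and 4.30 in cKO in place of 4.81. Syn1, whose span covers Timp1 on the opposite strand, fell from 1024 and 545 counts to 244 and 125. Overlap of their exons was not checked, and whether the counting used strand is not stated. Whether the pair shares reads was thus not tested.

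Mmp19, a secreted protease that cuts basement membrane proteins, stood at 24.3 CPM in WT and 22.2 in cKO without treatment, at 78.0 and 49.5 with LPS, and at 19.3 and 17.3 with IL-4. It was highest in the LPS libraries of either genotype. It rose 3.20-fold with LPS in WT (2.93 to 3.51) and 2.23-fold in cKO (2.01 to 2.49). Tmem198b overlaps it on the opposite strand, at 242 counts in untreated WT and 249.6 with LPS.

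Mmp12, the macrophage elastase, stood at 1611 CPM in WT and 2049 in cKO without treatment, at 258 and 279 with LPS, and at 111 and 123 with IL-4. It was high at rest and low after both treatments. With LPS it fell 6.24-fold in WT (6.08 to 6.41) and 7.35-fold in cKO (7.16 to 7.54).

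Mmp8, a collagenase best known from neutrophil granules, stood at 99.7 CPM in WT and 116 in cKO without treatment, at 9.32 and 16.8 with LPS, and at 8.53 and 10.2 with IL-4. Like Mmp12 it was high at rest and low after treatment. With LPS Mmp8 fell 10.7-fold in WT (9.35 to 12.3) and 6.93-fold in cKO (6.24 to 7.73).

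Timp2, an inhibitor that also docks a gelatinase precursor to Mmp14 for activation, stood at 295 CPM in WT and 219 in cKO without treatment, at 79.3 and 69.7 with LPS, and at 204 and 148 with IL-4. It was lowest with LPS. It fell 3.72-fold with LPS in WT (3.54 to 3.91) and 3.14-fold in cKO (2.97 to 3.32); on deposited TPM the WT log2 fold was -0.96 in place of -1.89, under the 2-fold line.

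Mmp13, a collagenase that cuts fibrillar collagen, stood at 190.1 CPM in WT and 75.5 in cKO without treatment, at 204 and 243 with LPS, and at 115 and 238 with IL-4. The untreated cKO library was the lowest of the 6. With LPS it rose 3.22-fold in cKO (3.05 to 3.40), and in WT its log2 fold was 0.10, not called.

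Mmp9, a gelatinase stored in neutrophil granules and made by macrophages, stood at 6.22 CPM in WT and 3.45 in cKO without treatment, at 5.02 and 3.03 with LPS, and at 7.40 and 11.7 with IL-4, from 71 to 307 counts. It was low in all 6 libraries and highest in cKO with IL-4. With LPS its log2 fold was -0.31 in WT and -0.19 in cKO, neither called, and with median-ratio scaling the signs turned, to 0.30 and 0.39. Timp3, an inhibitor that stays bound to the matrix, had 0 counts in both untreated libraries, 5 and 3 with LPS and 2 in each IL-4 library, too few to be tested. Without the count filter the rise with LPS in WT was called. There only the LPS library holds reads, so its fold is not given and the call is not counted. Syn3 overlaps Timp3 on the opposite strand, at 2 counts in untreated WT and 18 with LPS, and at 3 and 7 in cKO. Whether this pair shares reads was not tested either.

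IL-4 called fewer genes. In WT 3 of the 8 tested members were called (1 higher, 2 lower) beside 23.9% of all tested genes, and in cKO 5 (3 higher, 2 lower) beside 28.9%. The median log2 fold of the members was -0.43 in WT and -0.20 in cKO, against 0.17 and 0.19 for all tested genes, which median-ratio scaling brought to within 0.01 of 0. On TPM the cKO median of all genes was 0.43 and that of the members turned to 0.11.

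Mmp12 fell with IL-4 by more than it did with LPS, 14.5-fold in WT (13.9 to 15.0) and 16.7-fold in cKO (16.1 to 17.3). Mmp8 fell 11.7-fold in WT (10.2 to 13.4) and 11.4-fold in cKO (10.0 to 13.0). Mmp14 rose 5.31-fold in WT (5.02 to 5.63) and 15.3-fold in cKO (14.3 to 16.4). The elastase and the neutrophil-type collagenase thus fell and the membrane protease rose under both treatments.

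Mmp13 rose 3.15-fold with IL-4 in cKO (2.99 to 3.33), while its log2 fold in WT was -0.72, not called. Mmp9 rose 3.39-fold in cKO (2.65 to 4.42), with a log2 fold of 0.25 in WT, not called. Whether these responses differ between the genotypes was not tested. Timp1 (0.32 in WT and -0.04 in cKO), Timp2 (-0.53 and -0.57) and Mmp19 (-0.33 and -0.36) were not called, and on TPM the cKO value of Mmp19 was 0.01.

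Neutrophil markers were near 0 in the untreated libraries and summed to 1307 TPM in WT and 1848 in cKO with IL-4. Most of them pass the count filter only through the IL-4 libraries, so their calls and folds are not counted here. Mmp8 fell in the same libraries in which these markers were high, and Mmp9 was called higher in cKO only. The part of the markers in the Mmp9 values was not tested. Of 7 macrophage markers LPS called 3 in WT (2 higher, 1 lower) and 5 in cKO (2 higher, 3 lower). IL-4 called 3 (2 higher, 1 lower) and 4 (2 higher, 2 lower). Of 4 osteoclast markers tested LPS called 3 in each genotype (2 higher, 1 lower). IL-4 called 2 in WT (1 higher, 1 lower) and 3 in cKO (1 higher, 2 lower), with Ctsk 15.7-fold and 7.46-fold lower. Their part in the members' values was not tested.

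Each treatment comparison kept every member call in edgeR's exact test with an assumed coefficient of variation of 0.2 between samples. That value was assumed, not measured.

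The genotype comparisons ask how the loss of Zmynd8 bears on these transcripts in each state. A gene was called at the same adjusted p and a fold of at least 1.2. The calls rest on reads of 1 library against 1. With the assumed variation of 0.2 none of the 8 members tested was called in any of the 3 comparisons. Of all genes tested, 273 of 12463, 37 of 12386 and 160 of 13245 were called.

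**Figure D2:**
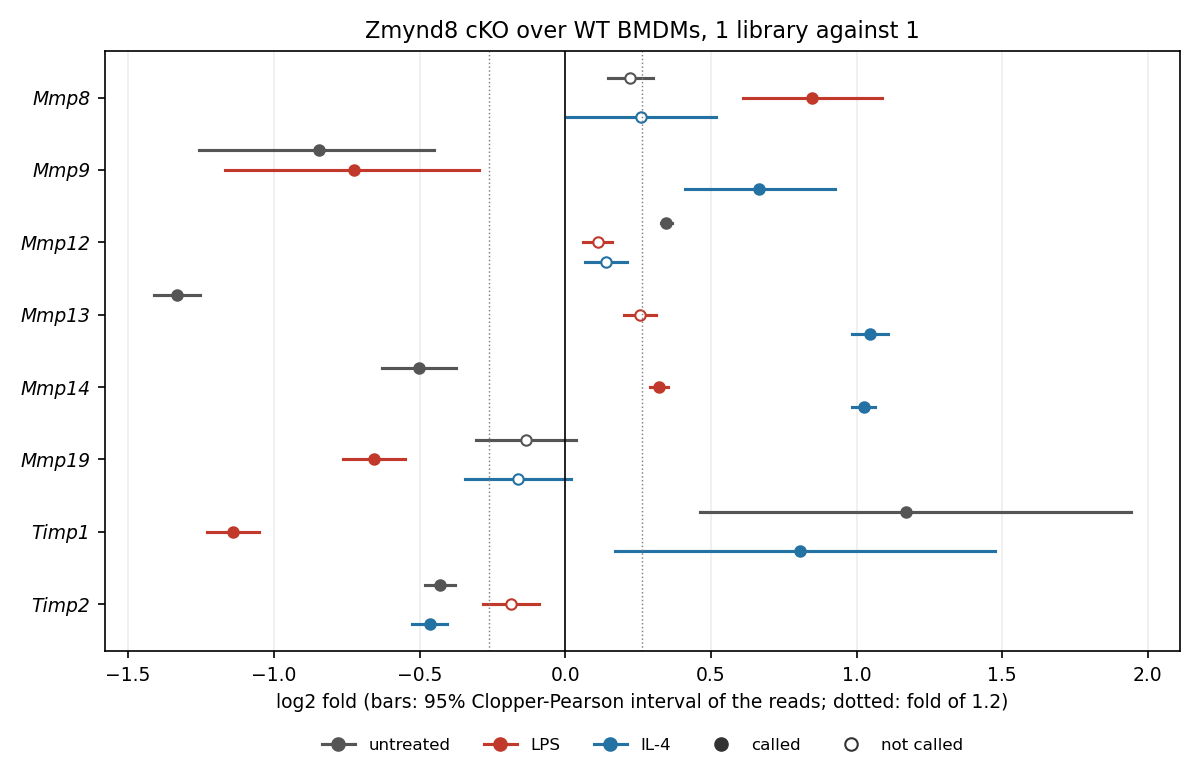
The log2 fold of Zmynd8 cKO over WT for the 8 tested members in untreated, LPS and IL-4 BMDMs; points are folds, filled where called, and bars are 95% Clopper-Pearson intervals of the reads. Mmp13 lies at -1.33 without treatment and 1.05 with IL-4, and Timp1 at 1.17, -1.14 and 0.81 in the 3 conditions.

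Without treatment 6 of 8 members were called between the libraries (2 higher in cKO, 4 lower) beside 48.7% of all tested genes, with a median log2 fold of -0.28 against -0.02. Mmp13 showed the largest fold, at 2.52-fold lower in cKO (2.38 to 2.66). Mmp9 was 1.80-fold lower (1.37 to 2.39), Mmp14 was 1.42-fold lower (1.298 to 1.54) and Timp2 was 1.35-fold lower (1.2998 to 1.396). Timp1 was 2.25-fold higher (1.38 to 3.84) on 49 against 25 counts, and Mmp12 was 1.27-fold higher (1.26 to 1.29). Mmp8 (log2 fold 0.22) and Mmp19 (-0.13) were not called. On TPM the median of all genes moved to -0.25, the calls of Mmp12 (0.07) and Timp2 (-0.13) were lost, and Mmp8 turned to -0.04. Mmp19 moved to -0.58 on TPM, past the 1.2-fold line, and was still not called.

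With LPS 5 of 8 members were called (2 higher in cKO, 3 lower) beside 26.8% of all tested genes, with a median log2 fold of -0.04 against 0.04. Timp1 was 2.20-fold lower in cKO (2.07 to 2.34), the opposite side from the untreated libraries and on 1440 against 3370 counts. Mmp9 was 1.65-fold lower (1.23 to 2.25) and Mmp19 was 1.57-fold lower (1.46 to 1.69). Mmp8 was 1.80-fold higher (1.53 to 2.13) and Mmp14 was 1.25-fold higher (1.22 to 1.28). Mmp13 (0.26), Timp2 (-0.19) and Mmp12 (0.11) were not called, and on TPM Mmp13 (0.34) and Timp2 (-0.41) passed.

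With IL-4 5 of 8 members were called (4 higher in cKO, 1 lower) beside 25.1% of all tested genes, with a median log2 fold of 0.46 against 0.01. The largest folds were those of Mmp13 and Mmp14: Mmp13 was 2.07-fold higher in cKO (1.98 to 2.16) and Mmp14 was 2.03-fold higher (1.98 to 2.09). Mmp9 was 1.59-fold higher (1.33 to 1.90), and Timp1 was 1.75-fold higher (1.13 to 2.78) on 55 against 34 counts. Timp2 was 1.38-fold lower (1.33 to 1.44). Mmp8 (0.26), Mmp12 (0.14) and Mmp19 (-0.16) were not called.

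Markers moved between the genotypes too. Of the neutrophil markers, 0 of 2 tested were called without treatment, 1 of 1 (lower) with LPS, and 5 of 9 (all higher in cKO) with IL-4, beside the higher Mmp9. Of the macrophage markers 6 of 7 were called without treatment (2 higher, 4 lower), 3 with LPS (2 higher, 1 lower) and 5 with IL-4 (3 higher, 2 lower). Of the osteoclast markers 2 of 3 tested were higher without treatment, and with LPS and with IL-4 2 of 4 were higher and 1 lower; they summed to 72.3 TPM in WT and 131 in cKO without treatment, to 146 and 174 with LPS, and to 54.2 and 98.1 with IL-4, led by Acp5 except in untreated cKO, where Ctsk led at 91.9 TPM. The part of these markers in the members' folds was not tested. Dendritic cell, stromal and B cell markers summed to at most 14.1, 1.76 and 24.2 TPM in any BMDM library, led by Ccr7, Dcn and Cd79b. Of the dendritic cell markers 0 of 1 tested were called without treatment, 2 of 4 with LPS and 2 of 5 with IL-4, all higher in cKO. The 1 B cell marker tested was higher without treatment (log2 fold 1.74) and with IL-4 (0.63), and not called with LPS. No stromal marker was called. Their part was not tested either.

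The D/E-A comparison asks what the mutant does in place of WT Zmynd8. In the Raw264.7 tables a gene was called at a fold of at least 1.2 on the deposited value plus 1, with no test; genes whose 2 values averaged under 1 were left out. In D/E-A 6 of 9 members were called (3 higher, 3 lower) beside 72.6% of all genes, so the share is near the background. Values are given with WT Zmynd8 first.

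Mmp13 stood at 5357 and 18010.1, 3.36-fold higher in D/E-A (3.26 to 3.47), and Mmp12 stood at 189.5 and 444, 2.34-fold higher (1.97 to 2.79). Timp3 stood at 662 and 1032, 1.56-fold higher (1.41 to 1.72). Timp1 moved the other way, at 4504 and 1217, 3.70-fold lower (3.47 to 3.95). Mmp13 and Mmp12 were thus high in D/E-A where Timp1 was low, but neither class moved as a whole. The inhibitor Timp3 was higher, and the proteases Mmp8 and Mmp9 were lower.

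Mmp8 stood at 733 and 505, 1.45-fold lower in D/E-A (1.29 to 1.63), and Mmp9 stood at 2967 and 2310.1, 1.28-fold lower (1.22 to 1.36). All 10 neutrophil markers were also lower in D/E-A, with a median log2 fold of -1.13, and 6 of 7 macrophage markers were higher, with a median of 0.99, the macrophage markers summing to 51647 and 81763. Of the dendritic cell markers 6 of 6 were called (1 higher, 5 lower), summing to 3165 and 1874 with Ccr7 leading and Cd209a not listed, and of the B cell markers 3 of 6 (2 higher, 1 lower). Of the osteoclast markers 2 of 2 were lower, summing to 3562 and 2533 with Acp5 leading. The part of these markers in the members' values was not tested. Mmp14 (31735 and 28239, log2 fold -0.17), Mmp19 (594 and 670.4) and Timp2 (495 and 559) were not called; with reads scaled to totals without the ribosomal gene Rn18s-rs5, Mmp14 passed at -0.32 and the median of all genes moved from 0.02 to -0.13.

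In Zmynd8 KO against the same WT Zmynd8 library 5 of 9 members were called (3 higher, 2 lower) beside 70.3% of all genes. Values are again WT Zmynd8 first. Mmp12 stood at 202 and 386, 1.91-fold higher in the knockout (1.61 to 2.28), and Mmp13 stood at 5718 and 9301, 1.63-fold higher (1.57 to 1.68). Timp3 stood at 707 and 1054, 1.49-fold higher (1.35 to 1.64). Timp1 stood at 4807 and 2400.3, 2.002-fold lower (1.91 to 2.10), and Mmp14 stood at 33872 and 27751, 1.22-fold lower (1.201 to 1.24).

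Mmp8 (782 and 673, log2 fold -0.22) and Mmp9 (3167 and 2675, -0.24) were not called, though both passed on reads over library totals. Mmp19 (634 and 691) and Timp2 (529 and 528) were not called. Of the neutrophil markers 6 of 10 were lower, with a median log2 fold of -0.39, and 6 of 7 macrophage markers were higher, with a median of 0.34. Of the B cell markers 6 of 6 were called (1 higher, 5 lower), with a median of -0.47, and of the dendritic cell markers 5 of 7 (3 higher, 2 lower), summing to 3379 and 3051 with Ccr7 leading. Of the osteoclast markers 4 of 6 were called (2 higher, 2 lower). The part of these markers was not tested. The D/E-A and knockout comparisons share the WT Zmynd8 library, so their folds are not independent of each other.

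Per kilobase of exon, the order in WT Zmynd8 (of the D/E-A table) was Mmp14 at 8349, Timp1 at 5061, Mmp13 at 2003 and Mmp9 at 777, with Mmp12 last at 50.2. In D/E-A Mmp13 passed Timp1, at 6733 against 1367, behind Mmp14 at 7429. Mmp12 was last in D/E-A too, at 118.

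**Figure D3:**
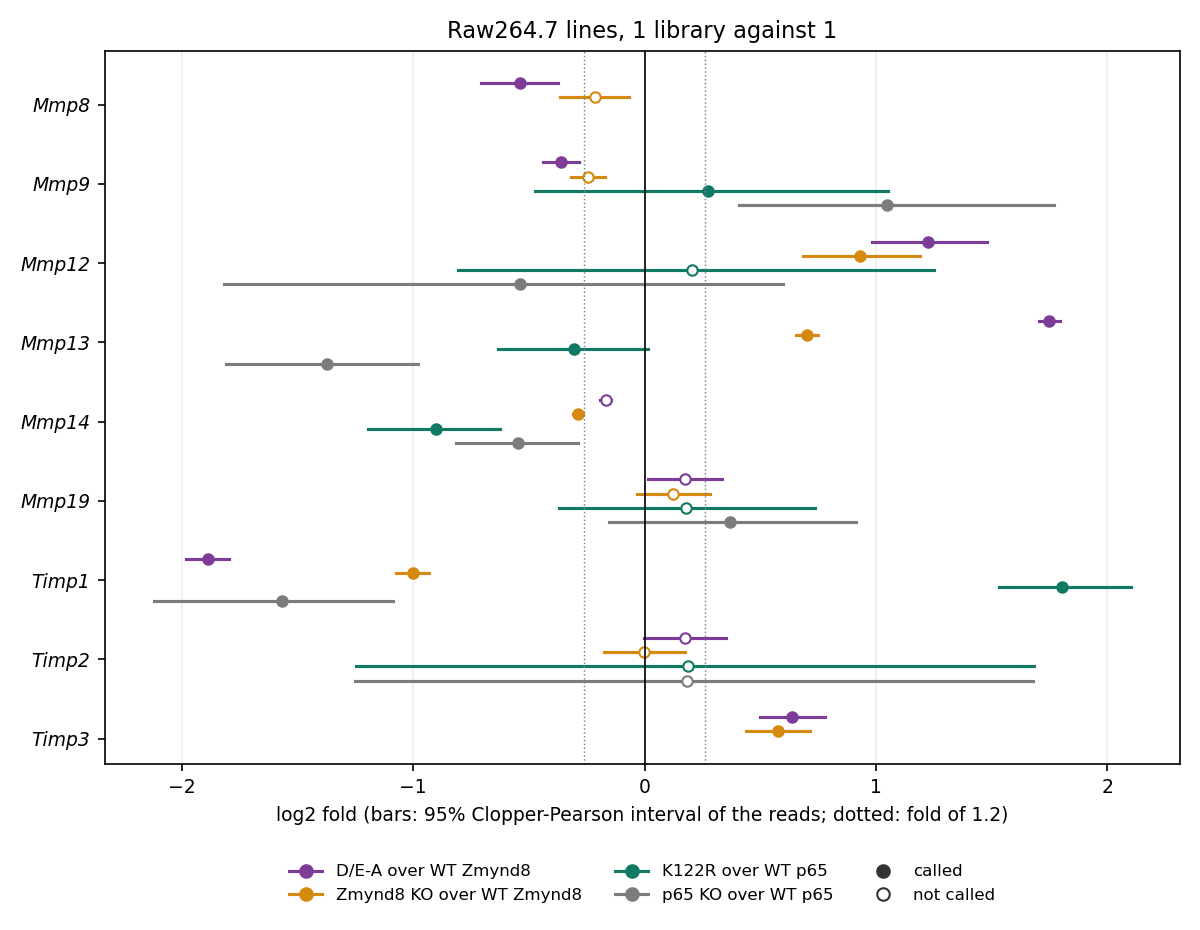
The log2 fold of each Raw264.7 line over its control for the members tested; points are folds, filled where called, and bars are 95% Clopper-Pearson intervals of the reads. Timp1 lies at -1.89 in D/E-A, -1.002 in Zmynd8 KO, 1.80 in K122R and -1.57 in p65 KO.

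The K122R comparison asks what the mutant p65 does in place of WT p65 under LPS. Of the 7 members listed 4 were called (2 higher, 2 lower) beside 63.3% of all genes; Mmp8 and Timp3 were not listed. Values are WT p65 first. Timp1 stood at 131 and 462, 3.49-fold higher in K122R (2.89 to 4.29), and Mmp14 stood at 300.2 and 160.0, 1.87-fold lower (1.54 to 2.29). These calls also passed an exact test on the reads. Of the osteoclast markers 4 of 4 tested were called in K122R (3 higher, 1 lower), with a median log2 fold of 1.02, and they summed to 1015 with WT p65, led by Ocstamp, and to 2314 in K122R, led by Dcstamp; Oscar was at 0 or not listed in both, and Calcr in K122R. Of the macrophage markers 4 of 7 were called (2 higher, 2 lower), of the B cell markers 3 of 4 (2 higher, 1 lower), and of the dendritic cell markers 3 of 5 (1 higher, 2 lower), with Ccr7 4.80-fold lower (3.67 to 6.54) and Xcr1 2.26-fold higher (1.86 to 2.78). The part of these markers in the members' values was not tested.

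Mmp9 (28.4 and 34.7, 1.21-fold higher, 0.720 to 2.07) and Mmp13 (181 and 146, 1.24-fold lower, 0.990 to 1.55) were called on the fold but their intervals include 1. Mmp19 (54.0 and 61.2), Mmp12 (16.7 and 19.4) and Timp2 (8.83 and 10.2) were not called. On reads over library totals the median of all genes moved from 0.01 to -0.17 and the Mmp9 call was lost.

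In p65 KO against the same WT p65 library 6 of 7 tested members were called (2 higher, 4 lower) beside 51.9% of all genes. Values are WT p65 first. Timp1 stood at 132 and 43.7, 2.97-fold lower in the knockout (2.12 to 4.35), and Mmp13 stood at 181 and 69.2, 2.59-fold lower (1.97 to 3.51). Mmp14 stood at 301 and 205, 1.46-fold lower (1.22 to 1.76). Mmp9 stood at 28.5 and 60.0, 2.07-fold higher (1.33 to 3.41). The secreted inhibitor and the collagenase were thus low, and the gelatinase high, in the knockout. Of the osteoclast markers 3 of 4 tested were called, all higher, with a median log2 fold of 0.54, and they summed to 1017 with WT p65, led by Ocstamp, and to 1649 in p65 KO, led by Dcstamp; Oscar was at 0 or not listed in both, and Calcr in p65 KO. Of the macrophage markers 3 of 7 were called (2 higher, 1 lower), of the B cell markers 5 of 5 (3 higher, 2 lower), and of the dendritic cell markers 4 of 5 (2 higher, 2 lower). Their part was not tested.

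Mmp12 (16.7 and 11.2, 1.45-fold lower, 0.660 to 3.53) and Mmp19 (54.1 and 70.2, 1.29-fold higher, 0.898 to 1.89) were called on the fold, with intervals that include 1, and an exact test on the reads did not keep them. Timp2 (8.85 and 10.2) was not called, and Timp3 had 1 read in the knockout and 0 with WT p65. The K122R and p65 KO comparisons share the WT p65 library. Per kilobase of exon Timp1 led with WT p65, at 148, ahead of Mmp14 at 79.0 and Mmp13 at 67.5 (of the K122R table), and led in K122R at 519; in p65 KO Mmp14 led at 54.1, ahead of Timp1 at 49.1.

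The other 17 MMP genes and Timp4, a list of 18, were mostly silent in BMDMs. With LPS 5 were tested in each genotype and 3 were called (1 higher, 2 lower). Mmp25, a membrane protease anchored by a lipid, rose from 0.610 to 60.9 CPM in WT (96.8-fold, 61.2 to 175), on 16 untreated counts. In cKO Mmp25 stood at 0.221 CPM without treatment and 78.7 with LPS, on 5 and 1845 counts. There it passes the count filter only through the LPS library, so its fold is not given. The list counts keep such genes. With IL-4 6 were tested, of which all 6 were called in WT (3 higher, 3 lower) and 5 in cKO (2 higher, 3 lower); Mmp27 fell 7.30-fold in WT (6.00 to 9.03) and 4.62-fold in cKO (4.08 to 5.25). Between the genotypes Mmp27 was higher in cKO in all 3 conditions, 1.92-fold (1.75 to 2.11), 1.61-fold (1.31 to 2.01) and 3.04-fold (2.44 to 3.82), among 2 called of 6, 5 and 4 tested. In the Raw264.7 lines 4 of 5 tested were called in D/E-A (1 higher, 3 lower) beside 72.6% of all genes, 10 of 11 in Zmynd8 KO (6 higher, 4 lower) beside 70.3%, 6 of 8 in K122R (5 higher, 1 lower) beside 63.3% and 5 of 7 in p65 KO (4 higher, 1 lower) beside 51.9%. These Raw264.7 calls rest on the fold alone, and the intervals of some include 1. They were Mmp28 in D/E-A (0.773 to 2.08), and Mmp27 (0.883 to 1.89) and Mmp2 (0.807 to 1.88) in Zmynd8 KO. So were Mmp23 in K122R (0.859 to 2.99) and Mmp24 in p65 KO (0.945 to 1.55). Those of others, such as Mmp25 in D/E-A (2.59 to 3.09), do not. Every list count is to be read against the share of all genes called in the same comparison.

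Genes that activate, inhibit or dock MMPs, a list of 13, include the plasmin system. Plau, the urokinase that makes plasmin, stood at 1608 CPM in untreated WT BMDMs, at 51.3 with LPS and at 134 with IL-4. It fell 31.3-fold with LPS in WT (29.6 to 33.1) and 32.3-fold in cKO (30.6 to 34.2), and 12.0-fold (11.6 to 12.4) and 8.59-fold (8.34 to 8.84) with IL-4. Lcn2, which binds Mmp9 and protects it from breakdown, had only 22 counts in WT and 11 in cKO without treatment. It rose 187-fold with LPS in WT (126 to 306) and 233-fold in cKO (136 to 488). With IL-4 it rose 34.9-fold in WT (23.4 to 57.3) and 82.5-fold in cKO (48.0 to 173). Lcn2 is also a neutrophil granule gene, and the neutrophil markers were high in the same IL-4 libraries; their part in the Lcn2 values was not tested. Of 9 tested 6 were called with LPS in WT (4 higher, 2 lower) and 5 in cKO (3 higher, 2 lower); with IL-4 6 of 8 were called in WT (4 higher, 2 lower) and 7 of 9 in cKO (5 higher, 2 lower). Between the genotypes 3 of 8 were called without treatment (all higher in cKO), 2 of 8 with LPS (1 higher, 1 lower) and 4 of 9 with IL-4 (all higher). In the Raw264.7 lines 5 of 9 tested were called in D/E-A (3 higher, 2 lower), 6 of 11 in Zmynd8 KO (5 higher, 1 lower), 9 of 10 in K122R (all higher) and 6 of 10 in p65 KO (3 higher, 3 lower). Plau was 6.02-fold higher in K122R (5.49 to 6.63).

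By position, 10 MMP genes of RefSeq (Mmp13, Mmp12, Mmp1b, Mmp3, Mmp1a, Mmp10, Mmp8, Mmp27, Mmp20 and Mmp7, in this order) lie within 427 kb of chromosome 9, from 7272514 to 7699585 in mm10. In BMDMs Mmp1a, Mmp1b and Mmp20 had 0 counts in every library, Mmp7 had at most 1 and Mmp3 at most 12. Mmp13 lies at chr9:7272514-7283333, Mmp12 at chr9:7344397-7360461 and Mmp8 at chr9:7558429-7568486, all on the plus strand. Mmp12 and Mmp8 fell under both treatments in both genotypes and so did Mmp27 of the same cluster, 4.87-fold (4.09 to 5.88) and 5.80-fold (5.03 to 6.73) with LPS in WT and cKO. Mmp10 had 232 counts in WT and 105 in cKO without treatment, 9 in each with LPS, and 0 and 4 with IL-4. Mmp10 passes the count filter only through the untreated libraries, so its folds are not given. Their neighbour Mmp13 was not called lower in any of these comparisons, though its IL-4 log2 fold of -0.72 in WT would pass a 1.2-fold line. Mmp9 (chr2:164940744-164955850), Mmp14 (chr14:54431598-54442456), Mmp19 (chr10:128790910-128800827), Timp1 (chrX:20870166-20874737), Timp2 (chr11:118301061-118355411, minus strand) and Timp3 (chr10:86300412-86349505) lie elsewhere.

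RefSeq promoters of build GRCm38.p6 matched 7 of the 9 members, all but Mmp9 and Mmp19. The 250 bases before each start were searched on both strands, and no matches overlapped. The AP-1 motif, TGANTCA, matched in 2 of the 7 (Mmp12 and Mmp13) and in 6.75% of all 32851 promoters. The PEA3 motif of ETS factors, AGGAAG, matched in 6 of the 7, all but Timp2, and in 29.5% of all. The TATA box, TATAAA, matched in Mmp13 alone of the 7 and in 12.4% of all, and the NF-κB consensus in Mmp12 alone, from -129 to -120, and in 7.25% of all. A match is a description of letters, not a site.

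The 120 bases before the starts of the neighbours on chromosome 9 are shown because Mmp8 and Mmp12 were called lower in all 4 treatment comparisons and Mmp13 in none of them. All are on the plus strand, 5′ to 3′, and capitals mark motif matches, the single capital that opens the first Mmp12 sequence being the end of its NF-κB match; Mmp12 has 2 RefSeq starts. They are chr9:7558309-7558428 for Mmp8, chr9:7344277-7344396 and chr9:7347254-7347373 for Mmp12, and chr9:7272394-7272513 for Mmp13.
Mmp8: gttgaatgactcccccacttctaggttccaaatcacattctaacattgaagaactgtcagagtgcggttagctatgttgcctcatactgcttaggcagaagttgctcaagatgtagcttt
Mmp12, first start: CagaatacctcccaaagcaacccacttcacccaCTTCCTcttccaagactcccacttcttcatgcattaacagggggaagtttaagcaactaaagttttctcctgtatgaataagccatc
Mmp12, second start: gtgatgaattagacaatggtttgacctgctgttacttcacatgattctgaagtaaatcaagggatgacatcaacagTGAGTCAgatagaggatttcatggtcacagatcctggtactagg
Mmp13: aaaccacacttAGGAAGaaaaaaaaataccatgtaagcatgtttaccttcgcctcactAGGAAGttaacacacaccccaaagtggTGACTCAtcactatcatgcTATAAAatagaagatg
In Mmp13 the AP-1 match lies from -35 to -29, PEA3 matches from -109 to -104 and from -62 to -57, and the TATA match from -16 to -11. In Mmp12 the PEA3 match lies from -87 to -82 of the first start and the AP-1 match from -44 to -38 of the second. The 120 bases of Mmp8 hold none of them.

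The genes with the most similar profile over the 6 BMDM libraries were found by the root mean square difference of centred log2 CPM among 9925 genes. On this measure Mmp19 had the smallest differences, Asf1a at 0.08, Msl3l2 at 0.14 and Grina at 0.17, and Timp2 had Aplp2 at 0.12. Mmp13 was nearest to Naa25 at 0.19 and Mmp9 to Gm26617 at 0.21. Mmp12 was nearest to Cd28 at 0.24 and Mmp8 to Hmga2 at 0.26, with Cd28 second at 0.32. Mmp14 was nearest to Jak2 at 0.33. Timp1 was nearest to Acoxl at 0.48. The measure is not scaled for how far a gene moves, so it does not rank the members by closeness. Timp1 had the widest range over the 6 libraries, 7.12 in log2, against 1.69 for Mmp13. The 6 points share their libraries and the likeness was not tested.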

How the data were processed

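For the BMDM libraries the authors deposited estimated counts and TPM for each gene, which they made from reads aligned with TopHat to the mm10 transcriptome. For the Raw264.7 lines the deposited signal of each gene is a read count divided by 1 size factor per library, per the values themselves; the authors' processing notes name CASAVA 1.4, Bowtie 0.12.2, mm8 and mm10. Whole reads were recovered from that signal. The authors' fold and p columns, columns without a header in the Raw264.7 tables, and the other 35 of 47 samples were not used here. Rows that name no gene (431 in the untreated table, 431 in the LPS table and 2 in the IL-4 table) stayed out of library totals.

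BMDM folds are log2 ratios of counts plus 0.5 per library total; calls use a 2-sided exact binomial test with Benjamini-Hochberg adjustment. All members are named, up to 4 called genes of each list and comparison with a mean of at least 100 counts or a value of 10 (largest fold first), markers by summed level, and 3 genes alike in profile for each member, of which the nearest are printed. The members and the gene lists (other MMPs and Timp4; activators, inhibitors and docking; ADAM and ADAMTS proteases; cathepsins; matrix substrates; cell type markers) were chosen with earlier results of these data known. Results for some other genes are not reported here. The code recovered planted folds in simulated tables. Python 3.11.15, NumPy 2.4.6, pandas 2.3.3, SciPy 1.17.1, matplotlib 3.10.9 and edgeR 4.0.16 were used.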

Additional observations from a re-analysis of the deposited data

Results flagged for a closer look

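Between the BMDM genotypes 4 members were called on opposite sides in different conditions, and whether the folds differ between conditions was not tested. Mmp9 had a log2 fold of cKO over WT of -0.84 without treatment, -0.72 with LPS and 0.67 with IL-4. Mmp13 had -1.33 without treatment and 1.05 with IL-4. Mmp14 had -0.50 without treatment, 0.32 with LPS and 1.02 with IL-4. Timp1 had 1.17 without treatment, -1.14 with LPS and 0.81 with IL-4.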

How the results depend on the processing

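Each condition has 1 library, so no library could be left out and there were no replicate libraries to pair. Over all alternatives, 183 of 250 member folds stayed within the 95% interval of the main value and 67 moved out of it; no called member changed sign, and the causes were not tested. At a fold of at least 2 the genotype calls were 947 of 12463 genes and 2 of 8 members without treatment. They were 462 of 12386 and 1 of 8 with LPS, and 749 of 13245 and 2 of 8 with IL-4. In the Raw264.7 lines D/E-A gave 2345 of 12771 genes and 3 of 9 members, and Zmynd8 KO gave 5460 of 21302 and 1 of 9. K122R gave 3926 of 19670 and 1 of 7, and p65 KO gave 3149 of 19879 and 3 of 7. In edgeR with the assumed variation of 0.2, 273, 37 and 160 genes and 0, 0 and 0 members were called between genotypes. At a fold of at least 1.2, LPS called 10553 of 12813 genes in WT and 10524 of 12666 in cKO. IL-4 called 8020 of 13090 genes and 6 of 8 members in WT, and 8794 of 12966 genes in cKO. Of the same genes tested, an exact test on the reads called 7035 for Zmynd8 KO, 5353 with 2 of 7 members for K122R, and 2706 for p65 KO. A mean value of at least 5 left 6514 calls for p65 KO, out of fewer genes.

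Scaling moved the split of higher and lower calls. Median-ratio factors gave 1748 and 1558 in place of 2185 and 1133 for cKO over WT with LPS (2472 and 849 on deposited TPM), 2637 and 2836 in place of 1747 and 5031 for LPS in WT, 2919 and 2980 in place of 2012 and 4942 for LPS in cKO, and 2140 and 1449 in place of 2640 and 1101 for IL-4 in cKO. Deposited TPM gave 1475 and 3995 in place of 2773 and 3298 without treatment and 3324 and 786 for IL-4 in cKO. Library totals gave 4376 and 8618 in place of 6051 and 6402 for K122R, and totals without Rn18s-rs5 gave 3695 and 5503 in place of 4686 and 4585 for D/E-A. The TPM folds, the totals without Rn18s-rs5 and the ratio without Mmp12 were added after the values had been seen.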

Other observations

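Other proteases of the macrophage were called too. Ctsk, the collagen-cutting cathepsin of osteoclasts, was higher in cKO BMDMs in all 3 conditions, 4.92-fold without treatment (4.48 to 5.42), 2.08-fold with LPS (1.91 to 2.27) and 10.3-fold with IL-4 (7.44 to 15.1), at 20.7 and 102, 30.8 and 64.1, and 1.303 and 13.6 CPM in WT and cKO. It was the only cathepsin of 9 called higher in these comparisons, in which Ctss, Ctsl and Ctsc (without treatment), Ctss, Ctsd and Ctsh (LPS) and Ctsd (IL-4) were called lower. LPS called 4 cathepsins in each genotype (2 higher, 2 lower), and IL-4 called 3 in WT (1 higher, 2 lower) and 5 in cKO (1 higher, 4 lower). In the Raw264.7 lines 3 were called in D/E-A (1 higher, 2 lower), 4 in Zmynd8 KO (3 higher, 1 lower), 4 in K122R (3 higher, 1 lower) and 3 in p65 KO (2 higher, 1 lower). Ctsc rose 9.12-fold with LPS (8.88 to 9.37) and 10.6-fold with IL-4 (10.4 to 10.9) in WT.

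Adam17, a membrane protease that frees cytokines from the cell surface, rose with IL-4. It went from 209 to 792 CPM in WT, 3.79-fold (3.68 to 3.91), and from 163 to 801 in cKO, 4.92-fold (4.75 to 5.10). Of 7 tested in the ADAM and ADAMTS list, 5 were called with IL-4 in WT (4 higher, 1 lower) and 5 in cKO (all higher), and with LPS 5 in WT and 2 in cKO (all lower). Between genotypes 5 were called without treatment (1 higher, 4 lower), 3 with LPS (all higher) and 3 with IL-4 (2 higher, 1 lower). In the Raw264.7 lines 5 were called in D/E-A and 2 in Zmynd8 KO (all higher), 5 in K122R (4 higher, 1 lower) and 3 in p65 KO (all higher).

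Fn1, the fibronectin that many MMPs cut, rose with IL-4 from 3.28 to 246 CPM in WT, 74.5-fold (60.6 to 93.8), and from 3.05 to 269 in cKO, 87.6-fold (69.6 to 114). Spp1, the osteopontin that MMPs also cut, was more abundant and fell with IL-4, from 2539 to 1006 CPM in WT, 2.52-fold (2.49 to 2.56), and from 3172 to 1350.0 in cKO, 2.35-fold (2.32 to 2.38). Of the matrix substrates tested, IL-4 called 4 of 7 in WT (3 higher, 1 lower) and 3 of 5 in cKO (2 higher, 1 lower), and LPS called 1 of 5 in WT (higher) and 2 of 5 in cKO (1 higher, 1 lower). Between genotypes 1 of 6 was called without treatment (higher), 1 of 5 with LPS (lower) and 3 of 6 with IL-4 (2 higher, 1 lower). In the Raw264.7 lines 4 of 5 were called in D/E-A (3 higher, 1 lower), 7 of 9 in Zmynd8 KO (6 higher, 1 lower), 5 of 9 in K122R (3 higher, 2 lower) and 7 of 9 in p65 KO (4 higher, 3 lower).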
